A study of Allium sativum with 18 samples.

Results

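Storage clove of garlic (*Allium sativum*) was followed from the enlarging bulb into dormancy. The comparison sets 3 libraries of dormant storage clove against 3 of enlarging storage clove, 6 of the 18 libraries in the series, across all 57561 gene IDs of the deposited table. The members are the 6 libraries whose labels give storage clove as the tissue and enlarging growth or dormancy as the stage. All plants were labelled Chalingzipisuan, and no genetic change or chemical treatment is given for any group. Enlarging bulbs were collected shortly after the flower stems had emerged, and the basal and the storage part of each clove were parted by hand before freezing. The other libraries came from germinating storage clove, whose bulbs bore short shoots, and from basal clove of the 3 stages, with 3 replicates in each of the 6 groups. The labels do not give the age of the bulbs, how dormant bulbs were kept, or whether a library pooled several bulbs.

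A garlic clove is an axillary bud with a thick storage leaf. While the bulb enlarges, this leaf takes in sugar and nitrogen, lays down fructans as its reserve carbohydrate, and accumulates the sulfur compounds from which the flavour of garlic is released. The clove then enters a rest in which sprouting is held back until a period of storage or cold has passed. The table pairs no ID with a gene name or description, so no gene of these pathways could be looked up. Genes are therefore described by level, change, length and neighbouring ID, and only 2 IDs that rose, 2 that fell and 2 that were not called are given.

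Expression was given as FPKM, which divides the fragments of a gene by its length and by the reads assigned in the library. FPKM is a share of the RNA sequenced, and in whole clove tissue fewer cells of a kind and less RNA per cell cannot be told apart. The reads assigned to genes, recovered from the steps between FPKM values, came to 11600094 to 12747904 in the enlarging libraries and 6540146 to 7155009 in the dormant libraries. Every dormant library was thus shallower than every enlarging one, and depth and stage cannot be told apart without thinning. A gene of 1 kb with 3 reads has 0.235 FPKM in the deepest of these libraries and 0.459 FPKM in the shallowest, limits that cover counting error only.

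Replicates resembled each other more than the stages did. Spearman correlations over the 30530 genes tested were 0.970 to 0.981 between enlarging replicates, 0.973 to 0.975 between dormant replicates and 0.936 to 0.953 between stages. The standard deviation of log2(FPKM + 1) among replicates had a median of 0.16 in enlarging and 0.18 in dormant clove. Enlarging replicate 2 stood nearer to basal clove than its replicates did, with a mean correlation of 0.895 to the basal libraries of its stage, against 0.868 and 0.857. In dormant storage clove this correlation was 0.827 to 0.834.

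With the deposited values, more genes were lower than higher in dormant storage clove, a balance that depended on the scaling. Of the 30530 genes tested, 6185 were called by limma at a Benjamini-Hochberg adjusted p below 0.05, or 20.3%. Rises made up 1876 of them (6.14% of genes tested) and falls 4309 (14.1%). With every library thinned to the same depth, 4526 genes were called, 1330 rises and 3196 falls. Quantile normalization gave 3025 rises and 2889 falls, and median-ratio scaling 3033 and 3194. Most changes were small, since 4323 of the called genes changed by less than 1 on the log2(FPKM + 1) scale. Among called rises the median change was 0.58 (interquartile range 0.40 to 0.87), among called falls -0.76 (-1.23 to -0.46), and over all genes tested -0.07. The 3 dormant values lay entirely above or entirely below the 3 enlarging values in 5906 of the called genes. Over all genes tested the groups were separated upward in 12.7% and downward in 22.5%.

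Falls outnumbered rises most clearly among changes of intermediate size. For changes of at least 1, the rises numbered 340 (1.11% of genes tested) and the falls 1522 (4.99%). At 2 or more the counts were 58 and 384, at 3 or more 15 and 100, and at 4 or more 6 and 21. At 5 or more they were 3 and 4, and at 6 or more 2 and 1. The limit of 1 does not mark a gap, since the smallest rise counted was 1.002 and the largest left out 0.99996. Rises made up 30.3% of all calls, but 48.7% when libraries were scaled by median ratios and 51.1% when they were quantile-normalized. Quantile normalization shifted the median gene from -0.07 to 0.05. At 1 or more, rises were 18.3% of calls as deposited, 23.1% with median ratios and 29.2% with quantiles. Without enlarging replicate 2, 381 genes rose and 1555 fell by at least 1, and with every library thinned to the same depth 353 rose and 1385 fell.

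**Figure D1:**
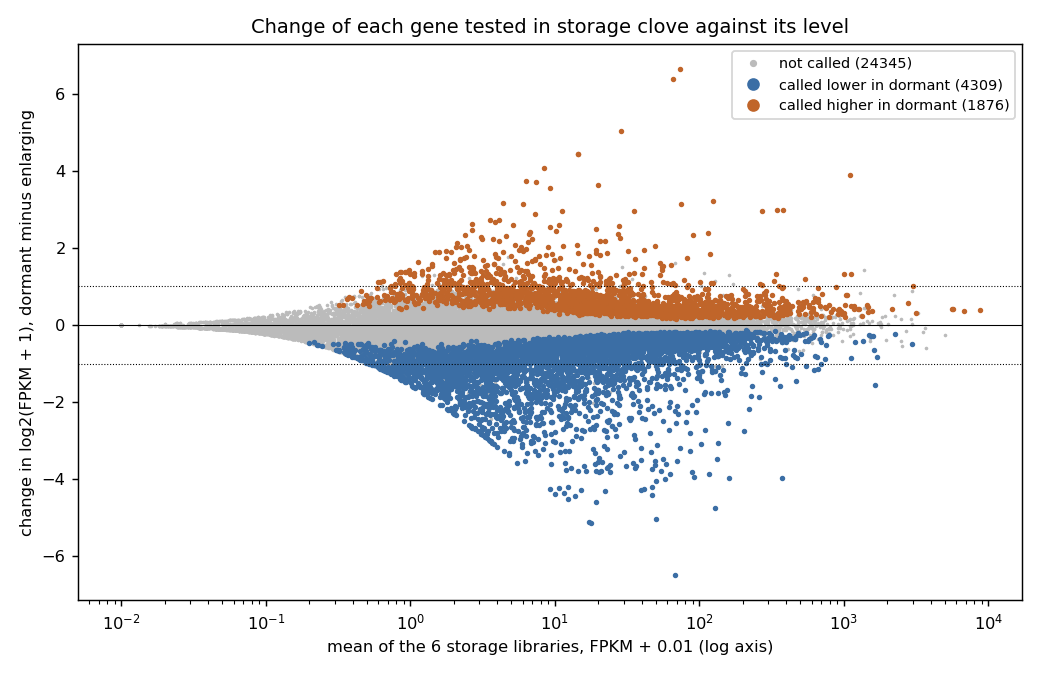
Each point is one of the 30530 genes tested, with the mean FPKM of the 6 storage libraries (plus 0.01, log axis) on the horizontal axis and the change in log2(FPKM + 1) from enlarging to dormant on the vertical axis. Orange points are the 1876 called rises and blue points the 4309 called falls; dotted lines mark changes of 1, and points below the lower line are more numerous than those above the upper line.

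The direction of change depended on how abundant a gene was. Among the 519 genes with a mean of 300 FPKM or more over the 6 libraries, 121 rose and 81 fell, 23.3% and 15.6% of the class. Among the 1490 genes of 100 to 300 FPKM, 246 rose and 300 fell. Among the 4816 genes of 1 to 3 FPKM, 184 rose and 641 fell, 3.82% and 13.3%. Rises were thus 59.9% of the calls in the most abundant class and 22.3% at 1 to 3 FPKM. After median-ratio scaling the shares were 78.5% and 29.1%, and after thinning to equal depth 60.1% and 21.9%. After quantile normalization, which gives every library the same distribution of values, they were 49.0% and 48.6%.

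**Figure D2:**
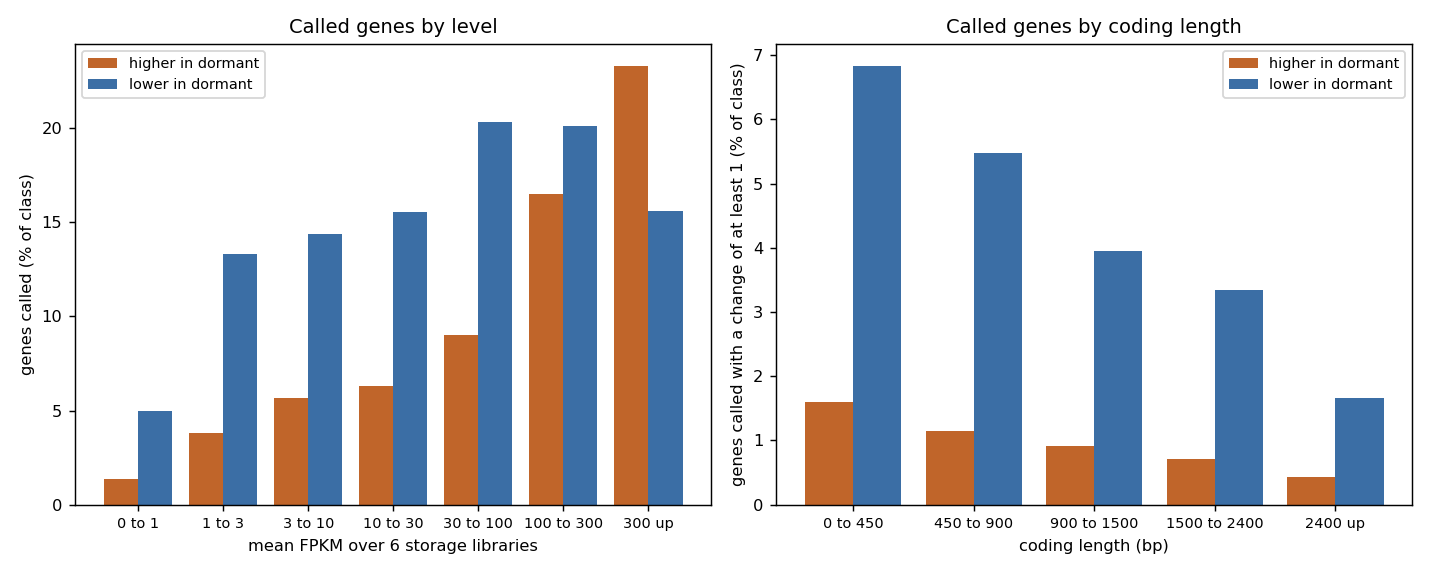
Bars give the percentage of genes in a class that were called, orange for genes higher and blue for genes lower in dormant storage clove. On the left, classes are by mean FPKM over the 6 libraries and all calls count: rises outnumber falls in the class of 300 FPKM and above (23.3% against 15.6%). On the right, classes are by coding length and only log2 changes of at least 1 count: falls go from 6.83% below 450 bp to 1.66% from 2400 bp up.

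Fewer genes supplied more of the transcript pool in dormant clove. The 100 most abundant genes of a library held 16.8%, 16.4% and 16.8% of its summed FPKM in enlarging replicates 1 to 3 and 18.1%, 18.4% and 18.5% in dormant replicates 1 to 3. All dormant values exceeded all enlarging ones, with an exact two-sided permutation p of 0.1, the smallest that 3 against 3 can give. The 1000 most abundant genes held 45.7% ± 0.273 when enlarging and 48.2% ± 0.238 when dormant (mean ± SD, n = 3 each, exact permutation p = 0.1). The top 10 held 4.45% ± 0.0806 and 5.12% ± 0.0227 of the summed FPKM (n = 3 each, exact permutation p = 0.1). As a share of reads, which does not correct for gene length, the top 10 held 3.52% and 3.59% (exact permutation p = 0.5), while the top 100 went from 13.2% to 14.7%.

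The most abundant transcripts were largely the same at both stages. Of the 100 with the highest group means, 85 were shared, and of the 115 genes in either list 33 rose and 17 fell. Over all genes tested 6.14% rose and 14.1% fell. Among genes of 300 FPKM or more, a class nearer in level, 23.3% rose and 15.6% fell. The single most abundant transcript was between 7033.4 and 7784.2 FPKM in enlarging and between 9571.9 and 10221.8 FPKM in dormant clove, a log2 change of 0.39 (SE 0.08, limma adjusted p = 0.0034). All called rises together went from 14.1% to 20.4% of the summed FPKM and all called falls from 20.5% to 13.2%, sums that describe the genes chosen. The 10 largest gains held 22.9% of what the 1876 rises gained, and the 10 largest losses 9.43% of what the 4309 falls lost. The list of falls is the longer, which by itself lowers the share of its 10 largest.

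The number of genes detected was lower in dormant clove. At 1 FPKM or more, 25017, 25408 and 25398 genes were detected in enlarging replicates 1 to 3 and 24058, 24557 and 24406 in dormant replicates 1 to 3. The groups did not overlap, and the mean difference was -934 genes (exact two-sided permutation p = 0.1). With every library thinned to 6540146 reads the means were 25198 ± 249 and 24331 ± 248 (SD, n = 3 each), a difference of -867 genes.

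Asa2G05822.1 had the largest rise in mean FPKM among called genes whose log2 change was at least 1 and whose groups did not overlap. It was already abundant before dormancy. Its coding length is 378 bp. It stood at 2035.4, 1820.1 and 2207.1 FPKM in enlarging and at 3949.2, 4260.3 and 3953.6 FPKM in dormant storage clove. The lowest dormant library was thus well above the highest enlarging one, and the gene went from the 25th to the 6th highest mean. The change was 1.01 on the log2 scale (SE 0.20, limma adjusted p = 0.0017), 2.01-fold, just past the limit of 1. In basal clove over the same stages it fell from 520.6 ± 23.5 to 204.3 ± 32.1 FPKM (mean ± SD, n = 3 each), a log2 change of -1.36 (limma adjusted p = 9.9e-05).

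Asa7G03238.1 rose from a moderate level to one of the highest. Its coding length is 915 bp. The enlarging libraries held 101.1, 137.4 and 163.3 FPKM and the dormant libraries 1307.6, 2736.7 and 2161.2 FPKM, with 1179 to 1855 and 7825 to 17720 reads. Dormant replicate 1 was the lowest of the dormant libraries, and still far above the highest enlarging value. The mean was 15.4-fold higher at dormancy, a log2 change of 3.90 (SE 0.34, limma adjusted p = 1.1e-06), and its rank went from 1462 to 25. In basal clove it moved the other way, from 653.4 ± 150.3 to 73.6 ± 21.8 FPKM (mean ± SD, n = 3 each), a log2 change of -3.15 (limma adjusted p = 8e-06).

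Under the same limits, the largest loss of mean level was that of Asa0G01738.1, with a coding length of 309 bp. It stood at 2661.3, 2261.7 and 2456.8 FPKM in enlarging and at 839.7, 659.5 and 1031.7 FPKM in dormant storage clove. The groups did not overlap, and the mean was 2.92-fold lower at dormancy, a log2 change of -1.56 (SE 0.25, limma adjusted p = 0.00035). Basal clove held little of it at either stage, 25.2 ± 7.74 and 21.4 ± 6.81 FPKM (n = 3 each), and its change there was not called (limma adjusted p = 0.54).

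Asa6G03213.1, with a coding length of 543 bp, was the falling gene with the greater relative change. It went from 780.0, 707.9 and 635.6 FPKM in the enlarging libraries to 38.9, 39.8 and 54.3 FPKM in the dormant ones, where 138, 153 and 211 reads were counted. The mean was 16.0-fold lower, a log2 change of -3.98 (SE 0.26, limma adjusted p = 1e-07), and its rank went from 147 to 4691. Basal clove showed a fall too, from 1274.2 ± 203.1 to 221.3 ± 87.8 FPKM (mean ± SD, n = 3 each, limma adjusted p = 5.2e-06). At germination the gene was at 3.43 ± 0.932 FPKM in storage clove (n = 3).

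Germinating storage clove held little of either rising gene, 9.20 ± 2.40 FPKM of Asa2G05822.1 and 6.37 ± 0.843 FPKM of Asa7G03238.1, while Asa0G01738.1 stood at 1090.5 ± 316.2 FPKM there (n = 3 each). The 4 genes kept their direction and stayed called under each of the 19 other settings tried. The log2 change ranged from 0.93 to 1.15 for Asa2G05822.1, from 3.67 to 4.20 for Asa7G03238.1, from -1.72 to -1.40 for Asa0G01738.1 and from -4.13 to -3.89 for Asa6G03213.1.

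The most abundant genes that were not called were Asa7G05732.1 and Asa3G03703.1. Asa7G05732.1 stood at 6170.0, 4810.2 and 5379.3 FPKM in enlarging and 4784.0, 3845.9 and 5028.3 FPKM in dormant storage clove, and the groups overlapped (limma adjusted p = 0.19). Of the 19 other settings, quantile normalization alone called it lower, by -0.41 (limma adjusted p = 0.023). Asa3G03703.1 stood at 3568.2, 4122.6 and 5633.2 FPKM in enlarging and 2307.6, 2748.4 and 3784.0 FPKM in dormant clove, again overlapping (limma adjusted p = 0.12). Its spread among replicates of a group was 1068.7 and 757.9 FPKM (SD, n = 3 each), and a change of -0.60 on the log2 scale (SE 0.26) did not pass the test.

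**Figure D3:**
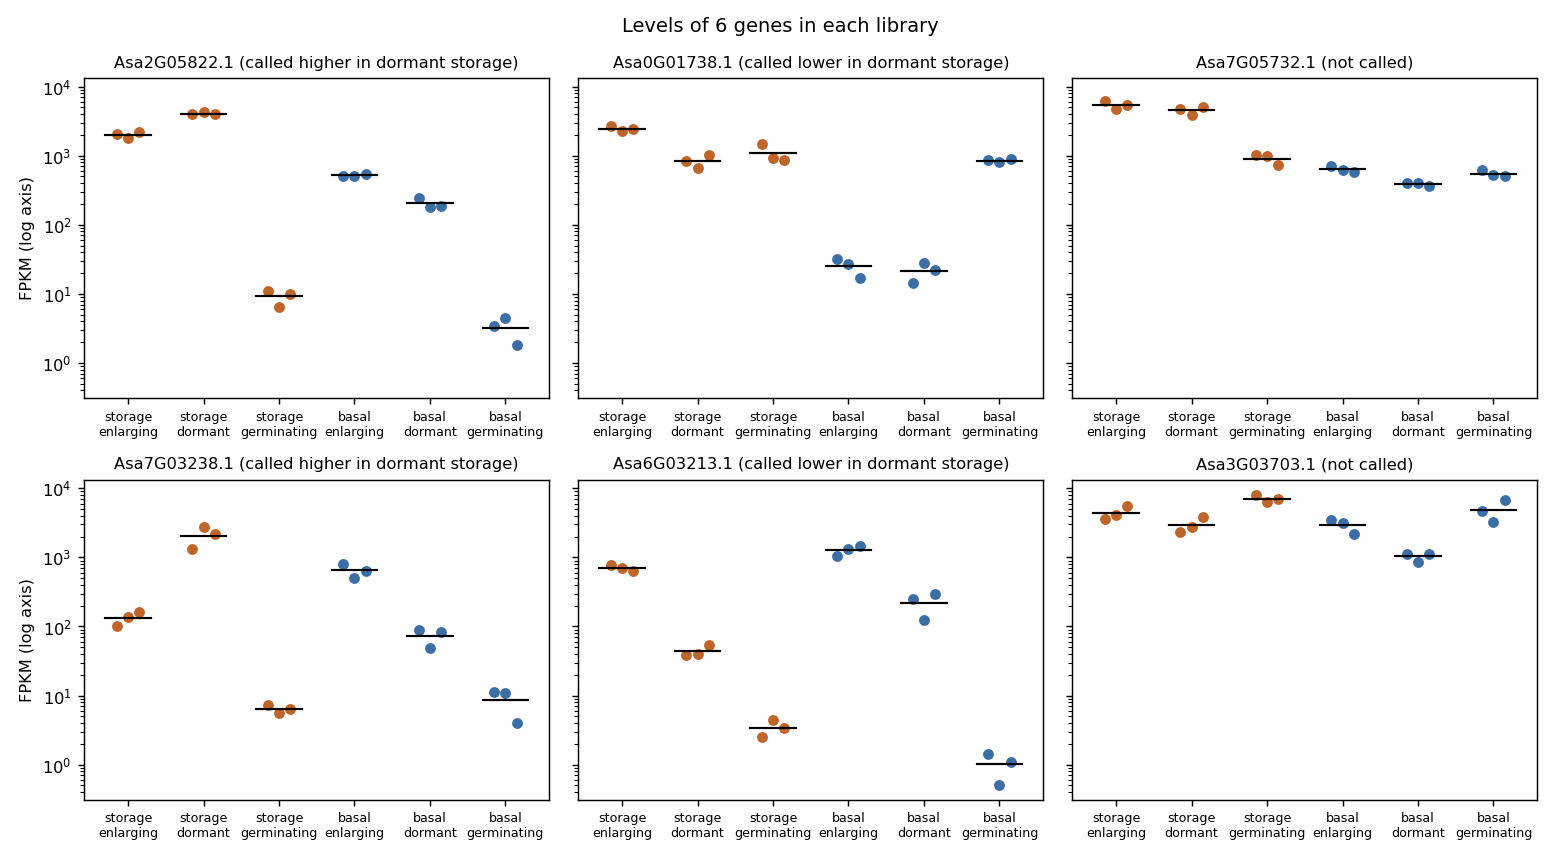
FPKM (log axis) of 6 genes in each of the 18 libraries, orange for storage and blue for basal clove; points are libraries and bars group means. Among called genes with a log2 change of at least 1 and no overlap of groups, the left column shows the 2 whose mean rose most in dormant storage clove and the middle column the 2 whose mean fell most; the right column shows the most abundant genes not called. In the left and middle columns the dormant storage values do not overlap the enlarging ones.

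Some genes went from a clear level to almost none. A mean of at least 10 FPKM in enlarging clove together with less than 1 FPKM in every dormant library was found for 24 genes, and the reverse for 6. The 24 lost genes had means of 10.1 to 35.8 FPKM when enlarging, from 107 to 1276 reads over the 3 libraries. In dormant clove they had between 0 and 15 reads over the 3 libraries, with a median of 2, and 5 of them had 0, a count that allows up to 3 reads. The 6 gained genes had 0 to 16 reads in enlarging and 76 to 543 in dormant clove, where their means were 11.5 to 28.5 FPKM. The count of lost genes was 15 without enlarging replicate 3 and 39 without dormant replicate 2, and that of gained genes was 10 without enlarging replicate 3, so both counts depend on single libraries. With libraries thinned to equal depth they were 25 and 5.

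Basal clove over the same stages shares no library with the storage comparison, though the fit uses 1 estimate of the spread for both. The median level of the lost genes in basal clove was 6.81 FPKM when enlarging and 1.17 when dormant, and 10 of the 24 fell by limma at an adjusted p below 0.05. All 6 gained genes rose in basal clove, from a median of 0.317 to 6.26 FPKM. Over all genes tested, 16.5% rose and 15% fell in basal clove.

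The larger sets overlapped with basal clove in part. Of the 340 rises of at least 1 in storage clove, 91 rose in basal clove, or 26.8%, and 37 fell, or 10.9%. Of the 1522 falls of at least 1, 358 fell in basal clove, or 23.5%, and 89 rose, or 5.85%. Counting only changes of at least 1 in both tissues, 237 genes fell in both, which is 15.6% of the storage falls and 27.6% of the 858 basal falls. Rises of at least 1 in both numbered 55, which is 16.2% of the storage rises and 5.40% of the 1019 basal rises. The background for the shares of the storage lists is the 858 falls and 1019 rises of at least 1 among all 30530 genes tested in basal clove. For the shares of the basal lists it is the 4.99% of all genes tested that fell and the 1.11% that rose by at least 1 in storage clove. The 15% and 16.5% given above are for calls of any size in basal clove, and go with the 26.8%, 10.9%, 23.5% and 5.85%. The median basal change was -0.34 for the storage falls and 0.20 for the storage rises, against -0.01 over all genes tested.

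A test of the interaction asked whether the change from enlarging to dormant differed between the tissues, and it called 28.6% of the genes tested. The rising and falling genes named here had been chosen for a large change in storage clove, and the interaction contains that same change. The choice tends to enlarge their differences and lower their p-values, so both are given as a description. For Asa2G05822.1 the storage change exceeded the basal change by 2.36 on the log2 scale (SE 0.28, limma adjusted p = 1.8e-05) and for Asa7G03238.1 by 7.06 (SE 0.48, limma adjusted p = 2.6e-07). For the falling genes the storage change was the more negative, by -1.34 (SE 0.35, limma adjusted p = 0.0096) for Asa0G01738.1 and by -1.38 (SE 0.37, limma adjusted p = 0.012) for Asa6G03213.1.

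Across the 6 groups, rising and falling genes had different profiles. These sets were chosen by their values in enlarging and dormant storage clove, so those levels are a description. The 340 rises of at least 1 had a median of 2.27 FPKM in enlarging, 9.03 in dormant and 2.33 in germinating storage clove. In basal clove they stood at 4.77, 6.33 and 3.99 FPKM at the same stages. The highest of the 6 group means was in dormant basal clove for 68 of them, or 20%, beside 19.0% of all genes tested. These shares are not like for like, since the rises were chosen for high levels in dormant storage clove. The highest mean was in dormant storage clove for 171 of them, or 50.3%.

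The 1522 falls of at least 1 had a median of 8.37 FPKM in enlarging, 1.76 in dormant and 10.6 in germinating storage clove. The highest group mean was in germinating storage clove for 573 of them, or 37.6%, beside 19.4% of all genes tested, a share raised by the choice of genes low in dormant storage clove. In basal clove the medians were 5.28, 3.66 and 8.21 FPKM. Over all genes tested the 6 medians lay between 7.07 FPKM in dormant storage clove and 9.18 FPKM in enlarging basal clove. The falls held 4.39%, 3.64% and 4.93% of the summed FPKM in enlarging replicates 1 to 3 and 1.2%, 1.34% and 1.33% in dormant replicates 1 to 3. Enlarging replicate 2, the library nearest to basal clove, had the lowest of the enlarging values.

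**Figure D4:**
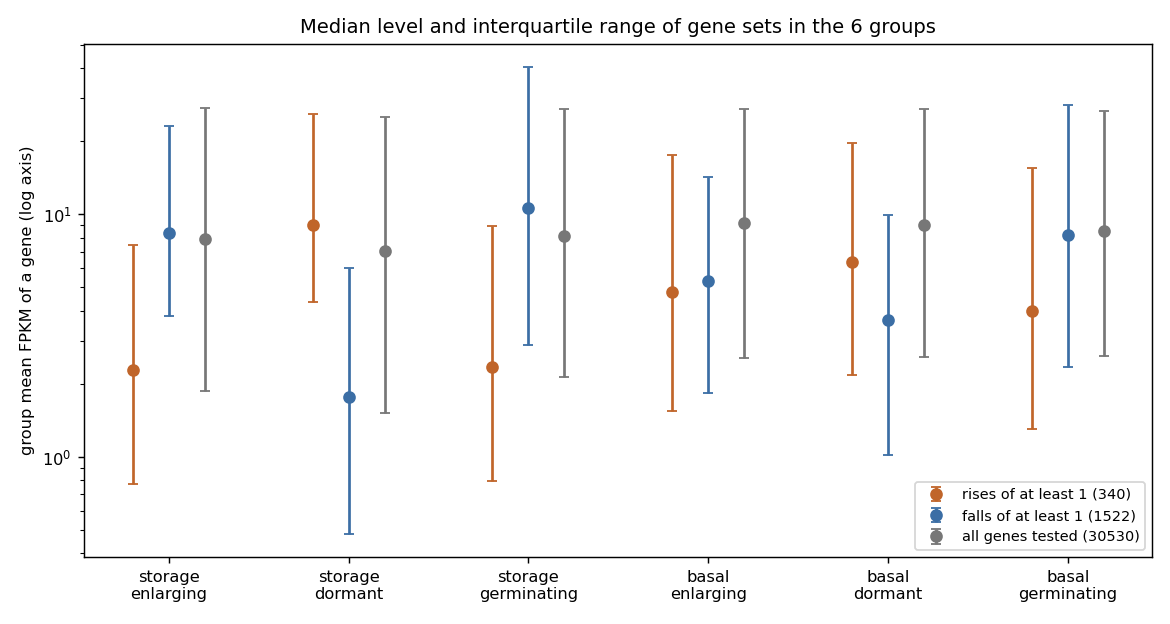
Median (point) and interquartile range (bar) of the group means in FPKM (log axis) of the 340 rises of at least 1, the 1522 falls of at least 1 and all 30530 genes tested, in the 6 groups of tissue and stage. The falls are lowest in dormant storage clove (1.76 FPKM) and highest in germinating storage clove (10.6 FPKM), and the rises are highest in dormant storage clove (9.03 FPKM).

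Genes high in basal clove, chosen in germinating bulbs alone, were summed in the storage samples. In the 6 germinating libraries, 1164 genes were called higher in basal clove by at least 3 on the log2 scale. Their summed share of FPKM was 1.03%, 1.48% and 1.30% in enlarging storage replicates 1 to 3, and 1.21%, 1.37% and 1.40% in dormant storage replicates 1 to 3. The groups overlapped, with a mean difference of 0.0562 percentage points (exact two-sided permutation p = 0.8). In basal clove of the same stages the share was 5.08% to 6.98%, so the storage libraries of both stages lay below every basal one, as their labels have it. In germinating basal clove, where the list was chosen, it was 13.9% to 18.4%. The share thus varied with stage as well as tissue, and it cannot tell how much basal tissue a storage sample held. Of the 1164 genes, 70 rose (6.01%, against 6.14% of all genes tested) and 71 fell (6.10%, against 14.1%) in storage clove. Their median change was -0.09. By at least 1, 48 rose (4.12%, against 1.11% of all genes tested) and 39 fell (3.35%, against 4.99%). The list was chosen for low levels in germinating storage clove relative to basal clove, so these shares are given as a description. No defining marker of a cell type could be checked, because the IDs have no names.

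**Figure D5:**
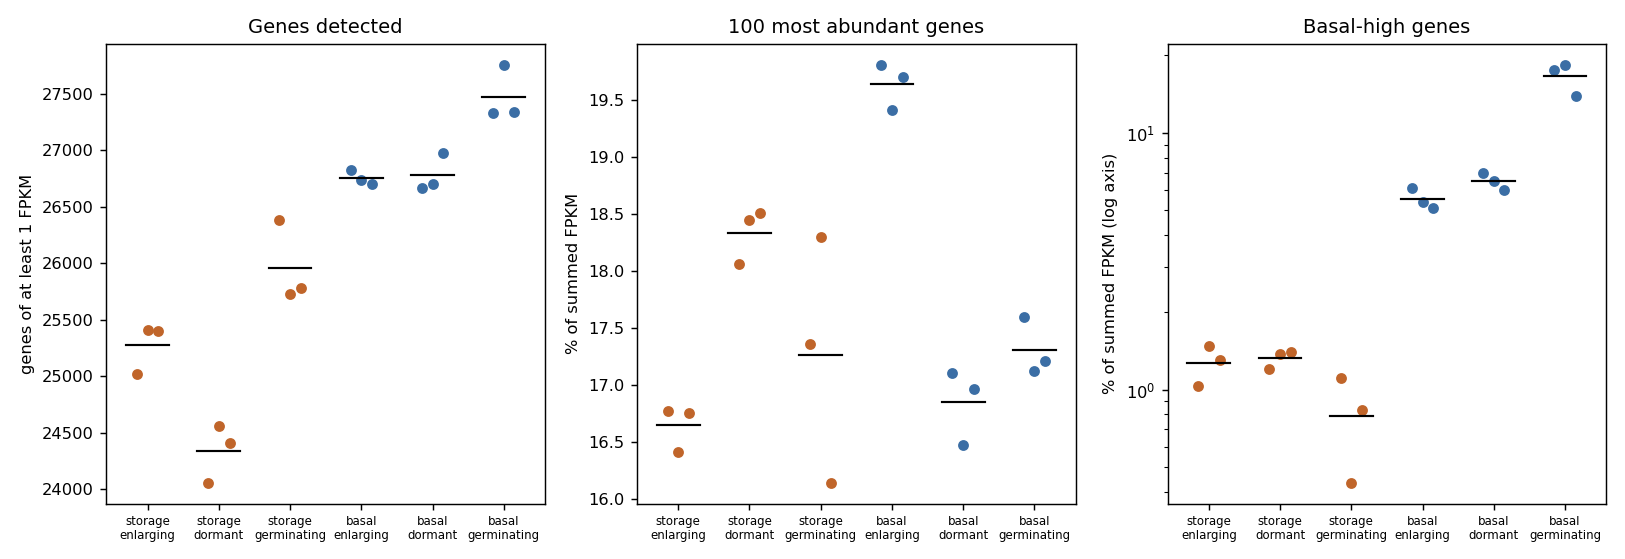
Points are the 18 libraries, orange for storage and blue for basal clove, and bars are group means. From left to right: the number of genes of at least 1 FPKM, the percentage of summed FPKM in the 100 most abundant genes, and the percentage in the 1164 genes that were higher in germinating basal clove (log axis; the germinating groups chose this list). Dormant storage libraries have the fewest genes detected (24058 to 24557), and their share of basal-high genes overlaps that of enlarging storage libraries.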

How the data were processed

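The authors deposited 1 table of FPKM values with 1 column per library. The submitters' processing notes name HISAT2. For the read counter, genome build, annotation and use of strand, the sources used here give nothing. Reads and coding lengths were recovered from the steps between values. The shortest length that gave whole reads was kept, so both may be understated where reads are few. Of 595800 values above 0, 100% were whole within 0.01 reads, a share raised by the search for lengths. Among the 21276 genes over 100 reads, 95.2% of lengths were multiples of 3.

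Genes of at least 1 FPKM in at least 3 libraries were tested on log2(FPKM + 1) with limma 3.58.1 (R 4.3.3), 1 model of 6 group means over 18 libraries with a variance trend (12 residual degrees of freedom). A change on this scale understates that of low genes. The model was tested on simulated data. Single values were compared by exact permutation tests (scipy 1.17.1). The alternatives were another pseudocount, low-value filters, scalings, fewer libraries, library weights, no trend, voom on recovered reads, thinning, a replicate block and leaving out each library.

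Named genes were those whose group mean in FPKM gained most (2) or lost most (2) among called genes with a change of at least 1 and no overlap of groups, and the 2 most abundant genes not called. Members and lists were chosen with earlier results of these data known. Lists of named pathways could not be run without gene names. No pair of replicates agreed within sampling noise (chi-square per gene 2.68 to 9.98). The labels call replicates biological, without saying whether bulbs came from separate plants, so p-values measure the spread between these samples.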

Additional observations from a re-analysis of the deposited data

Results flagged for a closer look

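The change from enlarging to dormant differed between storage and basal clove for 4 of the genes named, by the interaction test of limma. The storage change minus the basal change was 2.36 on the log2 scale for Asa2G05822.1 and 7.06 for Asa7G03238.1, both of which rose in storage and fell in basal clove. It was -1.34 for Asa0G01738.1, which fell in storage clove and was not called in basal clove. It was -1.38 for Asa6G03213.1, which fell in both. The genes had been chosen for their change in storage clove, and 28.6% of all genes tested were called in the same interaction.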

How the results depend on the processing

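With a pseudocount of 0.1 in place of 1, 541 genes rose and 2396 fell by at least 1. Calls numbered 6185, or 3626 with voom on the recovered reads (2286 falls) and 4526 after thinning to equal depth (3196 falls). Median-ratio scaling gave 3033 rises and quantile normalization 3025. Leaving out 1 library gave 4525 to 5384 calls, 1287 to 1600 rises, 3238 to 3846 falls, 317 to 381 rises of at least 1 and 1324 to 1587 such falls. Correlations of deviations from the group mean were 0.01 to 0.09 between same-numbered libraries and -0.09 to 0.04 between the others. These values are too few to settle whether the replicate numbers pair the samples. With a replicate block 5941 genes were called, 1775 up and 4166 down.

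At 300 FPKM or more, rises were 78.5% of the calls with median-ratio scaling and 49.0% with quantile normalization, and with the latter 48.6% at 1 to 3 FPKM. These and the checks on length were chosen after the data were seen. Called falls of at least 1 were 3.48% of genes below 450 bp with voom and 0.924% of those from 2400 bp up after quantile normalization. The difference in basal-high genes was -0.0440 percentage points with a list limit of 4 on the log2 scale, and -0.0648 to 0.161 with 1 library left out. Lost genes numbered 105 at 5 FPKM, 7 at 20 FPKM and 15 to 39 with 1 library left out, and gained genes 15, 1 and 5 to 10. The cause of these shifts was not tested. The shallow dormant libraries limit what can be said of genes near 1 FPKM.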

Other observations

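Genes that fell by at least 1 were more frequent among short genes. They made up 6.83% of the 8212 genes tested with a coding length below 450 bp and 1.66% of the 1624 genes of 2400 bp or more. Among genes of 10 to 100 FPKM the shares were 5.42% (144 genes) and 0.700% (6 genes), so the gradient was there at similar FPKM too. Reads were not matched, and at equal FPKM a short gene has fewer of them. The length kept was the shortest that gave whole reads, so genes with few reads may be classed too short. With voom on the recovered reads the shares over all levels were 3.48% and 2.09%, a smaller gap. Rises of at least 1 went from 1.60% (131 genes) to 0.431% (7 genes) over the same classes. Among genes of 10 to 100 FPKM they went from 1.24% (33 genes) to 0.117% (1 gene). For changes of at least 1 the gradient was thus not particular to falls, though few long genes were called. Called rises of any size went the other way, from 4.60% below 450 bp to 8.19% from 2400 bp up. Called falls of any size were 13.5% below 450 bp, 15.4% at 450 to 900 bp and 9.17% from 2400 bp up, a flatter gradient.

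Genes called with a change of at least 1 were followed by an ID called the same way more often than all IDs were, though most were not. Among the 340 rises of at least 1, the next ID number had been tested for 212, and 35 of these, or 16.5%, also rose by at least 1, against 1.16% of all next IDs tested. For falls of at least 1 it was 153 of 865, or 17.7%, against 4.84%. Runs of consecutive IDs changing the same way numbered 28 among rises, holding 63 genes, and 135 among falls, holding 288. The longest held 4 genes in both directions. These run counts have no background over all genes beside them. Whether ID numbers follow gene order, and whether reads were shared between near-identical neighbours, is not stated in the sources used here.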
